A study of Mus musculus with 6 samples.

Results

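*Ppara*, the *Cyp4a* genes *Cyp4a10*, *Cyp4a14*, *Cyp4a31*, *Cyp4a32*, *Cyp4a12a* and *Cyp4a12b*, *Cyp4f14* and *Pdk4* were followed in refed mouse liver. These 9 genes were taken by symbol out of the 23282 genes in the count tables, and all 9 were among the 14076 genes that passed the filter on low counts. Livers came from 3 *Alb-Cre;Tcf7l2* f/f mice (KO; libraries 7-2, 7-3 and 8-3) and 3 wild-type *Tcf7l2* f/f mice (WT; libraries 7-2, 8-1 and 8-3). Both groups were mice 12 weeks old, C57BL/6 by the labels and C57BL/6N by the study's methods, carried floxed *Tcf7l2* alleles, and had normal chow back for 24 h after a 24 h fast. The albumin promoter drives Cre in hepatocytes, and the study's methods call the deletion hepatocyte-selective. Whether other liver cells kept an intact *Tcf7l2* was not tested. WT 8-1 stood apart from the other libraries by its depth and by the share of its counts on the *Mup* genes, and values without it are given for the 9 genes, their sums and their ratios. Fasted mice were not analysed here, so a value cannot be placed between a fasted and a fed level.

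PPARα, encoded by *Ppara*, is a nuclear receptor that binds fatty acids, pairs with RXR and turns on genes of fatty acid oxidation and ketogenesis in the fasted liver. *Cyp4a10* and *Cyp4a14* encode fatty acid ω-hydroxylases and are among the classical PPARα targets in the mouse. ω-Hydroxylation oxidises the methyl end of a fatty acid, and the product is carried on by alcohol and aldehyde dehydrogenases to a dicarboxylic acid. *Cyp4a31* and *Cyp4a32* are close relatives of *Cyp4a10*. *Cyp4a12a* and *Cyp4a12b* are hydroxylases with higher expression in male than in female mice. *Cyp4f14* belongs to the neighbouring Cyp4f subfamily. *Pdk4* encodes a kinase that phosphorylates and switches off the pyruvate dehydrogenase complex, and it is known to be high in fasting and low after feeding.

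The *Cyp4a* genes lie side by side on chromosome 4 and are so alike that reads can fit more than 1 of them. In the RefSeq annotation of GRCm38.p6, *Cyp4a12a* lies at chr4:115299046-115332815, *Cyp4a12b* at chr4:115411624-115439034, *Cyp4a14* at chr4:115486200-115496158, *Cyp4a10* at chr4:115518287-115533649, *Cyp4a31* at chr4:115563627-115579015 and *Cyp4a32* at chr4:115600927-115622507. *Cyp4f14* lies apart at chr17:32903357-32917376, *Ppara* at chr15:85734910-85806851 and *Pdk4* at chr6:5483351-5496278. Annotated genes of unknown function overlap *Cyp4a14* (Gm52676), *Cyp4a12a* (Gm52675) and *Cyp4a12b* (Gm12837), and the sources used here do not say if reads were counted by strand.

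The coding sequence around the haem-binding cysteine, the part of the enzyme that holds the haem iron, shows which hydroxylases cannot be separated there. The lines below give 60 coding bases of each gene from the GENCODE vM39 transcripts, 5′ to 3′ on the coding strand, with capitals at bases that differ from *Cyp4a10*.
Cyp4a10, Cyp4a31 and Cyp4a32: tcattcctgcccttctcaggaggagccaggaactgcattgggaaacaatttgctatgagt
Cyp4a14: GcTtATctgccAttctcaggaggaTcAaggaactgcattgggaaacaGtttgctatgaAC
Cyp4a12a and Cyp4a12b: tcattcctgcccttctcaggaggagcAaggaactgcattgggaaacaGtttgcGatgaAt
Cyp4f14: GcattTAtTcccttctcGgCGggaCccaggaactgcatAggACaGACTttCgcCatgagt
*Cyp4a10*, *Cyp4a31* and *Cyp4a32* were identical over these bases, as were *Cyp4a12a* and *Cyp4a12b*. The *Cyp4a12* pair differed from *Cyp4a10* at 4 bases, *Cyp4a14* at 10 and *Cyp4f14* at 17.

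How far single bases can tell the near-copies apart is shown by the stretches below. They are the 60 coding bases with the most positions at which any copy in a group differs, not the most differing window of each pair, starting at coding base 200 for the first group and 624 for the second, with capitals at bases that differ from the first gene of the group.
Cyp4a10: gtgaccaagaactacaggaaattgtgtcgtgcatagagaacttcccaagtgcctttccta
Cyp4a31: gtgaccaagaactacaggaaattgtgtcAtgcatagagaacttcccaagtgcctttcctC
Cyp4a32: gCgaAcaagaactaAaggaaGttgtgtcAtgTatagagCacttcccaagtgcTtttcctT
Cyp4a12a: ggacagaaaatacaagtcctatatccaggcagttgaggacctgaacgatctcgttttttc
Cyp4a12b: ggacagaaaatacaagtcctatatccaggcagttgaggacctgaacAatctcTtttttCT
In this window *Cyp4a31* differed from *Cyp4a10* at 2 bases and *Cyp4a32* at 9, and *Cyp4a12b* differed from *Cyp4a12a* at 4.

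Over the whole coding sequence *Cyp4a10* was 97.2% identical to *Cyp4a32* (43 of 1530 bases differed) and 96.6% to *Cyp4a31* (52 of 1530), and *Cyp4a12a* was 98.5% identical to *Cyp4a12b* (23 of 1527). By contrast, *Cyp4a10* was 75.3% identical to *Cyp4a14* and 55.3% to *Cyp4f14*. Of all 50-base windows of the transcript, 37.0% of those of *Cyp4a10*, 19.9% of *Cyp4a31*, 45.5% of *Cyp4a32*, 49.0% of *Cyp4a12a* and 49.4% of *Cyp4a12b* were also found unchanged in another *Cyp4a* gene. For *Cyp4a14* this share was 0.245%, and for *Cyp4f14* it was 0. The deposited counts came from unique and multiple alignments, so single-gene counts within these 2 groups of near-copies are uncertain, whereas those of *Cyp4a14*, *Cyp4f14*, *Ppara* and *Pdk4* do not have this limit from the other genes described here. With 100-base windows the shared part was smaller, at 15.6% for *Cyp4a10*, 8.12% for *Cyp4a31*, 21.0% for *Cyp4a32*, 35.9% for *Cyp4a12a* and 36.2% for *Cyp4a12b*. The sources used here do not give the read length.

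**Figure D1:**
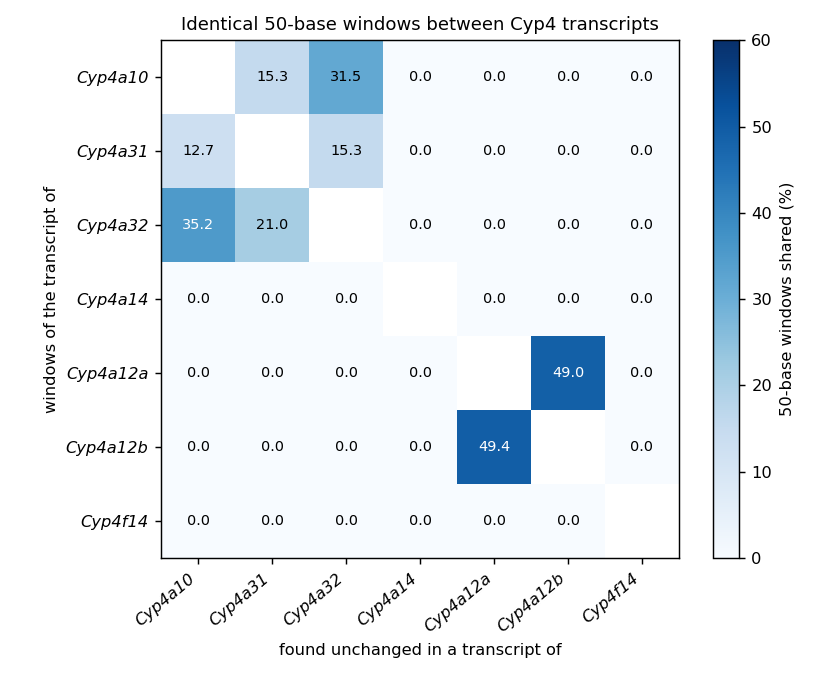
Share (%) of the 50-base windows in the transcript of each Cyp4 gene (rows) that occur unchanged in a transcript of each other gene (columns), shown by shade and number. Sharing falls into 2 blocks, *Cyp4a10* with *Cyp4a31* and *Cyp4a32*, and *Cyp4a12a* with *Cyp4a12b* (49.0% and 49.4%), while *Cyp4a14* and *Cyp4f14* share none with these genes to the first decimal.

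*Ppara* mRNA overlapped between genotypes. In CPM (counts scaled to library size, the size being adjusted by TMM factors) it stood at 51.0, 48.0 and 75.9 in KO livers 7-2, 7-3 and 8-3, against 45.0, 50.8 and 53.0 in WT livers 7-2, 8-1 and 8-3. The highest value was that of KO 8-3, and the other 2 KO livers lay within the WT range. The mean was 58.3 ± 15.3 CPM in KO livers and 49.6 ± 4.18 CPM in WT livers (SD, n = 3 each). The log2 fold change of KO over WT was 0.23 (SE 0.19, 95% interval −0.20 to 0.67), and edgeR's quasi-likelihood fit across all 14076 genes gave an adjusted *p*=0.626. Without KO 8-3 it was −0.0035, and without WT 8-1 it was 0.26.

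The hydroxylases that PPARα induces were lower on average in KO livers, but edgeR did not call the difference. *Cyp4a10* stood at 174, 358 and 213 CPM in KO livers 7-2, 7-3 and 8-3, against 715, 378 and 602 CPM in WT livers 7-2, 8-1 and 8-3. Each KO liver was below each WT liver, although KO 7-3 and WT 8-1 nearly met. The mean was 249 ± 97.0 CPM in KO livers and 565 ± 172 CPM in WT livers, 2.27-fold lower by the fit (log2 fold change −1.18, SE 0.31, 95% interval −1.88 to −0.49). The adjusted *p* was 0.159 in edgeR and 0.00241 in DESeq2. By exact permutation of the libraries, two-sided, *p* was 0.1, and no smaller value exists for 3 against 3. Without WT 8-1 the log2 fold change was −1.40 (edgeR adjusted *p*=0.119). As bulk liver RNA was measured, fewer cells expressing a gene and less of its RNA per cell cannot be told apart.

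*Cyp4a14*, which has almost no windows in common with the other genes, showed the same order of group means with overlap. It had 331, 406 and 324 CPM in KO livers 7-2, 7-3 and 8-3, against 902, 387 and 577 CPM in WT livers 7-2, 8-1 and 8-3. WT 8-1 lay below KO 7-3, while WT 7-2 and WT 8-3 lay above every KO liver. The mean was 354 ± 45.5 CPM in KO livers and 622 ± 260 CPM in WT livers (log2 fold change −0.81, SE 0.29, 95% interval −1.45 to −0.17, edgeR adjusted *p*=0.264, DESeq2 0.0544). Leaving out WT 7-2, the highest library, changed the log2 fold change to −0.44, and leaving out WT 8-1 to −1.06, both without a call. KO livers varied less among themselves, with a coefficient of variation of 12.9%, against 41.8% in WT livers.

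The relatives of *Cyp4a10* followed its pattern library by library. *Cyp4a31* had 33.1, 62.7 and 36.6 CPM in KO livers 7-2, 7-3 and 8-3, against 124, 65.4 and 91.5 CPM in WT livers 7-2, 8-1 and 8-3 (log2 fold change −1.08 ± 0.29, SE; edgeR adjusted *p*=0.161, DESeq2 0.0057; −1.28 without WT 8-1). *Cyp4a32* had 19.3, 39.8 and 20.5 CPM in KO livers, against 75.6, 49.2 and 73.8 CPM in WT livers in the same order of libraries. For both genes each KO liver was below each WT liver, and KO 7-3 was the highest KO liver as WT 8-1 was the lowest WT liver. *Cyp4a32* had the most negative log2 fold change of the 9 genes, −1.32 (SE 0.29, 95% interval −1.97 to −0.67), with an edgeR adjusted *p*=0.0996 and 0.000302 in DESeq2. Without KO 7-3 the edgeR value for *Cyp4a32* passed the threshold of 0.05 (log2 fold change −1.73, adjusted *p*=0.0155), whereas without WT 8-1 it was 0.11. Of the 50-base windows of *Cyp4a10*, 31.5% occur unchanged in *Cyp4a32* and 15.3% in *Cyp4a31*. A change of either relative by itself cannot be told apart from *Cyp4a10* reads that were counted in it.

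**Figure D2:**
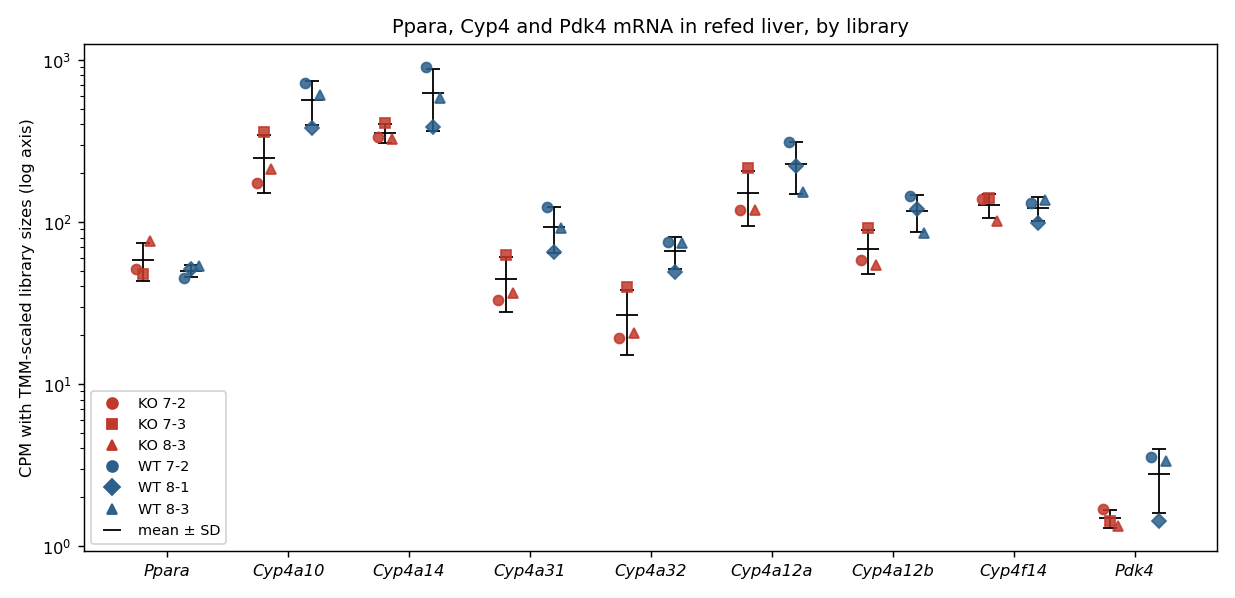
CPM of each gene in each of the 3 KO livers (red, left of each pair) and 3 WT livers (blue, right) on a log axis, with the mean and SD of each group in black. The 3 KO points of *Cyp4a10*, *Cyp4a31* and *Cyp4a32* lie below all 3 WT points, while those of the other genes overlap with WT.

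The male-biased hydroxylases overlapped between genotypes. *Cyp4a12a* had 118, 216 and 118 CPM in KO livers 7-2, 7-3 and 8-3, against 312, 222 and 152 CPM in WT livers 7-2, 8-1 and 8-3. *Cyp4a12b* had 58.3, 91.7 and 54.4 CPM in KO livers, against 144, 120 and 85.4 CPM in WT livers. For both genes KO 7-3 lay above WT 8-3, and the other 2 KO livers lay below every WT liver. The lowest WT liver was here WT 8-3, not WT 8-1 as for *Cyp4a10*. The log2 fold change was −0.60 for *Cyp4a12a* (SE 0.31, 95% interval −1.29 to 0.086, adjusted *p*=0.429 from edgeR) and −0.77 for *Cyp4a12b* (SE 0.25, 95% interval −1.33 to −0.21, adjusted *p*=0.234 from edgeR). DESeq2 gave an adjusted *p* of 0.295 for *Cyp4a12a* and of 0.0526 for *Cyp4a12b*. With single libraries left out, the log2 fold change of *Cyp4a12a* ranged from −0.95 without KO 7-3 to −0.31 without WT 7-2 and was −0.62 without WT 8-1. That of *Cyp4a12b* ranged from −1.05 to −0.59 and was −0.75 without WT 8-1, and neither gene was called in any of these fits.

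*Cyp4f14* had nearly the same mean in both genotypes. Its values were 139, 140 and 102 CPM in KO livers 7-2, 7-3 and 8-3, against 130, 98.8 and 136 CPM in WT livers 7-2, 8-1 and 8-3. The groups overlapped over nearly their whole range. The mean was 127 ± 21.6 CPM in KO livers and 122 ± 19.99 CPM in WT livers. The log2 fold change was 0.059 (SE 0.19, 95% interval −0.37 to 0.49, adjusted *p*=0.926, edgeR), so a difference within these bounds is not excluded. Without WT 8-1 it was −0.064.

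*Pdk4*, the kinase known to be high in fasting, had the lowest level of the 9 genes in every refed liver. Without fasted livers, this level cannot be called low for the fed state. KO livers 7-2, 7-3 and 8-3 held 144, 108 and 115 counts, against 235, 120 and 229 counts in WT livers 7-2, 8-1 and 8-3. Scaled to library size these were 1.70, 1.42 and 1.33 CPM in KO livers, against 3.54, 1.43 and 3.37 CPM in WT livers. WT 8-1 lay among the KO livers, and WT 7-2 and WT 8-3 lay above them. The mean was 1.49 ± 0.191 CPM in KO livers and 2.78 ± 1.17 CPM in WT livers (log2 fold change −0.90, SE 0.33, 95% interval −1.64 to −0.15, edgeR adjusted *p*=0.285, DESeq2 0.138). Without WT 8-1 the log2 fold change was −1.21, and the adjusted *p* over the libraries left out in turn ranged from 0.0997 to 0.611.

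Counted together, 0 of the 9 genes passed an adjusted *p* of 0.05 in edgeR in either direction, where 0.071% of all tested genes were called higher and 0.377% lower in KO livers. Before adjustment 6 of the 9 had *p* under 0.05 with lower values in KO (*Cyp4a10*, *Cyp4a14*, *Cyp4a31*, *Cyp4a32*, *Cyp4a12b* and *Pdk4*) and 0 with higher values, against 6.76% lower and 6.7% higher of all tested genes. DESeq2 called 3 of the 9 lower (*Cyp4a10*, *Cyp4a31* and *Cyp4a32*) and 0 higher, against 1.78% and 1.48% of the 13513 genes it gave an adjusted *p*. Those 3 were also the genes with every KO liver below every WT liver, an arrangement seen in 9.08% of tested genes, while 0 of the 9 had every KO liver above, seen in 10.2%. Because these 3 share reads, they are not 3 separate observations. The median log2 fold change of the 9 was −0.81, and 7 were negative and 2 positive, beside a median of −0.017 over all tested genes.

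**Figure D3:**
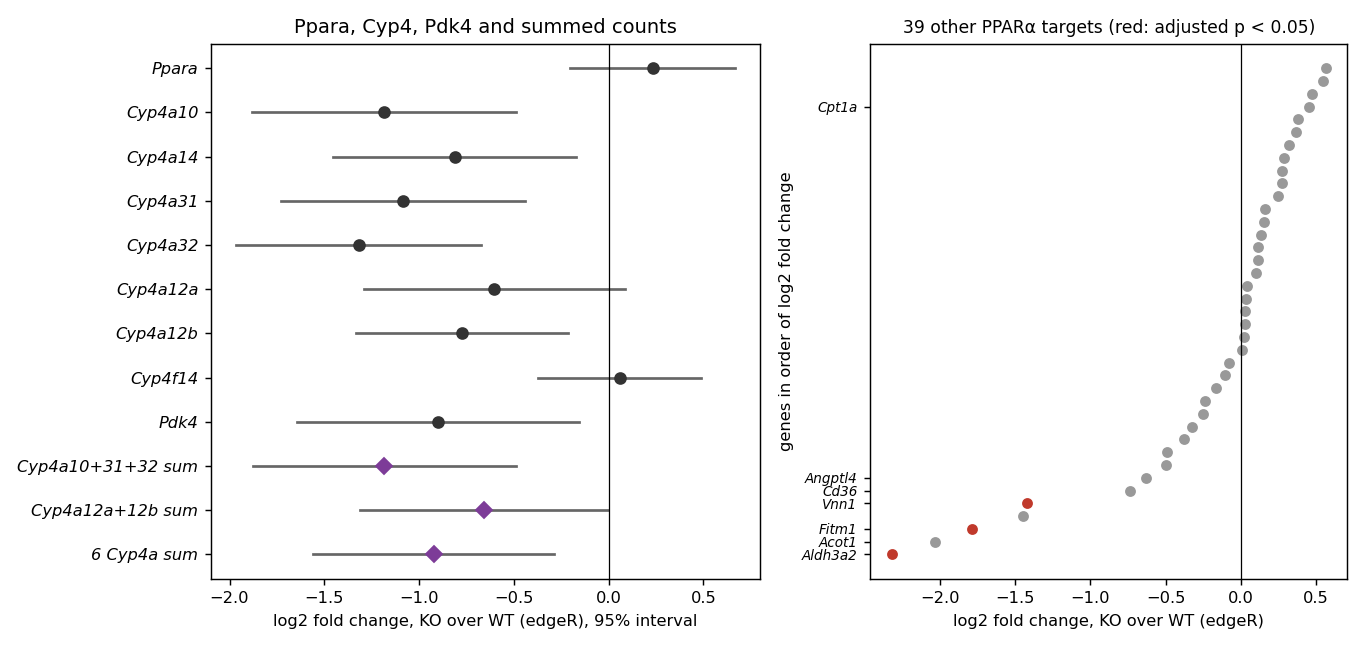
Left, edgeR log2 fold change of KO over WT (points) with its 95% interval (lines) for the 9 genes (circles) and for 3 summed counts (diamonds). Right, the log2 fold changes of 39 other PPARα target genes in order, red where the adjusted *p* was under 0.05, with names beside those that the text gives. The intervals of *Ppara*, *Cyp4a12a* and *Cyp4f14* include 0, and the targets at the low end are *Aldh3a2*, *Acot1* and *Fitm1*.

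Summed counts of near-copies do not depend on how reads were divided among the copies, although a read with multiple alignments may have been counted in several of them and so stand in a sum more than once. *Cyp4a10*, *Cyp4a31* and *Cyp4a32* together had 227, 461 and 270 CPM in KO livers 7-2, 7-3 and 8-3, against 915, 492 and 767 CPM in WT livers 7-2, 8-1 and 8-3. Each KO liver was below each WT liver, as for *Cyp4a10*, which makes up most of this sum. The mean of *Cyp4a10* alone was 249 CPM beside 319 CPM for the sum in KO livers, and 565 beside 725 CPM in WT livers. The log2 fold change of this sum was −1.18 (SE 0.31, 95% interval −1.88 to −0.49), with an edgeR adjusted *p*=0.159 and 0.00214 in DESeq2. Its closeness to the value of *Cyp4a10* alone is therefore not a separate observation. *Cyp4a12a* and *Cyp4a12b* together had a mean of 219 ± 76.9 CPM in KO livers and 345 ± 109 CPM in WT livers (log2 fold change −0.66 with SE 0.29, edgeR adjusted *p*=0.369, DESeq2 0.195), with values from −0.98 without KO 7-3 to −0.40 without WT 7-2. All 6 *Cyp4a* genes summed gave 735, 1175 and 767 CPM in KO livers, against 2273, 1222 and 1582 CPM in WT livers. The KO livers all lay below the WT livers for this total, and the log2 fold change was −0.92 with an SE of 0.28 (edgeR adjusted *p*=0.208, DESeq2 0.0136). Without WT 8-1 the sums gave −1.39 for *Cyp4a10*, *Cyp4a31* and *Cyp4a32*, −0.66 for *Cyp4a12a* and *Cyp4a12b* and −1.11 for all 6, and edgeR called none of them.

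Ratios of counts within a library need no scaling between libraries, and 9 were compared. The near-copies kept narrow ratios. *Cyp4a31* counts were 19.0%, 17.5% and 17.2% of *Cyp4a10* counts in KO livers 7-2, 7-3 and 8-3, against 17.3%, 17.3% and 15.2% in WT livers 7-2, 8-1 and 8-3. *Cyp4a32* counts were 9.64% to 11.1% of those of *Cyp4a10* in KO livers and 10.6% to 13.0% in WT livers, and *Cyp4a12b* counts were 42.5% to 49.4% of those of *Cyp4a12a* in KO livers and 46.2% to 56.1% in WT livers. None of these 3 ratios separated the genotypes (two-sided exact permutation *p*=0.3, 0.3 and 0.2). As reads of 1 copy can be counted in another, these ratios need not be those of the mRNAs. Of the 50-base windows of *Cyp4a10*, 15.3% occur unchanged in *Cyp4a31* and 31.5% in *Cyp4a32*. Of those of *Cyp4a12a*, 49.0% occur in *Cyp4a12b*. The part of shared reads in the narrow ratios was not tested.

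The ratio of *Cyp4a10* plus *Cyp4a14* to *Cyp4f14* did separate them. It was 3.65, 5.47 and 5.27 in KO livers 7-2, 7-3 and 8-3, against 12.4, 7.74 and 8.68 in WT livers 7-2, 8-1 and 8-3, with a difference in mean log2 ratio of −0.99 (two-sided exact permutation *p*=0.1, the smallest possible, and 0.338 after Benjamini-Hochberg adjustment over the 9 ratios). This was the single ratio of the 9 whose groups did not overlap. Relative to *Ppara*, *Cyp4a10* plus *Cyp4a14* stood at 9.91, 15.9 and 7.08 in KO livers and at 36.0, 15.1 and 22.2 in WT livers, where KO 7-3 and WT 8-1 overlapped (difference in mean log2 ratio −1.14, exact permutation *p*=0.2). *Pdk4* counts were 3.33%, 2.96% and 1.76% of *Ppara* counts in KO livers and 7.86%, 2.82% and 6.34% in WT livers (difference −1.01, exact permutation *p*=0.3). Between both kinds of *Cyp4a* gene, *Cyp4a10* plus *Cyp4a14* to *Cyp4a12a* plus *Cyp4a12b*, the difference was −0.28 (exact permutation *p*=0.5), and it turned on single libraries, at −0.0032 without WT 8-3 and −0.58 without WT 8-1. For *Cyp4a10* to *Cyp4a14* it was −0.47 and for *Cyp4a12a* plus *Cyp4a12b* to *Cyp4f14* −0.72 (exact permutation *p*=0.2 for both). Without WT 8-1 the differences in mean log2 ratio were −1.14 for *Cyp4a10* plus *Cyp4a14* to *Cyp4f14*, −1.45 to *Ppara*, −1.45 for *Pdk4* to *Ppara*, −0.44 for *Cyp4a10* to *Cyp4a14* and −0.56 for *Cyp4a12a* plus *Cyp4a12b* to *Cyp4f14*. For *Cyp4a31* to *Cyp4a10*, *Cyp4a32* to *Cyp4a10* and *Cyp4a12b* to *Cyp4a12a* they were 0.14, −0.10 and −0.15. Over the libraries left out in turn, *Cyp4a10* to *Cyp4a14* ranged from −0.66 without KO 7-3 to −0.29 without KO 7-2.

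**Figure D4:**
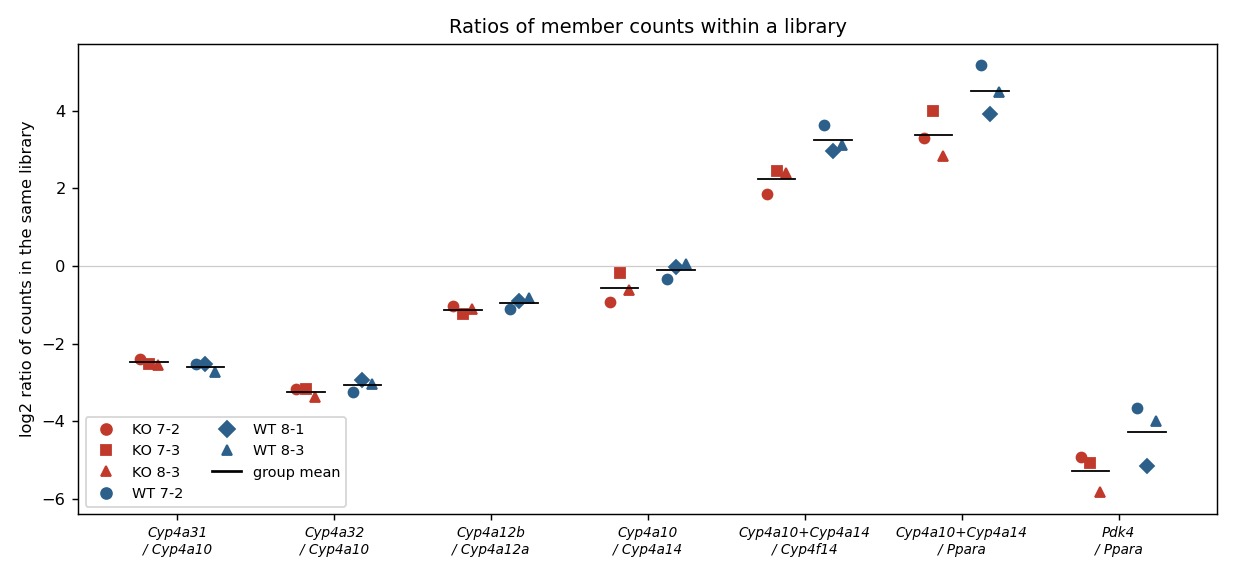
Log2 ratios of counts within each library for 7 of the 9 ratios, KO livers in red at the left of each pair and WT livers in blue at the right, with the group mean as a black line. The points of *Cyp4a31* to *Cyp4a10* span less than those of *Pdk4* to *Ppara*, and the groups are apart for *Cyp4a10* plus *Cyp4a14* to *Cyp4f14*, with means of 2.24 in KO and 3.23 in WT livers.

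The scale of the values moves with the share of each library taken by the *Mup* genes, which encode the major urinary proteins. That share was 18.5%, 26.4% and 28.7% in KO livers 7-2, 7-3 and 8-3, against 31.7%, 54.3% and 39.4% in WT livers 7-2, 8-1 and 8-3. As a plain share of the library, *Cyp4a10* was 0.0244%, 0.0396% and 0.0269% in KO livers, against 0.0706%, 0.0237% and 0.0498% in WT livers, so that WT 8-1, with the largest *Mup* share, fell to the lowest place. With library sizes alone, the median over all tested genes moved to a log2 fold change of 0.61, and the values were −0.67 for *Cyp4a10*, −0.78 for *Cyp4a32*, −0.29 for *Cyp4a14*, −0.053 for *Cyp4a12a* and −0.34 for *Pdk4*. With scaling that leaves out the *Mup* genes, 7 of the 9 were negative, as in the reported fit, and the median of all tested genes was −0.014. The part of the *Mup* share in these results was not tested.

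Per kilobase of coding sequence, *Cyp4a14* and *Cyp4a10* were the most abundant of the genes in both genotypes and *Pdk4* the least. In KO livers the mean levels were 232 CPM per kb for *Cyp4a14*, 162 for *Cyp4a10*, 98.7 for *Cyp4a12a*, 80.5 for *Cyp4f14*, 44.6 for *Cyp4a12b*, 41.4 for *Ppara*, 28.8 for *Cyp4a31*, 17.4 for *Cyp4a32* and 1.20 for *Pdk4*. In WT livers they were 408 CPM per kb for *Cyp4a14*, 369 for *Cyp4a10*, 150 for *Cyp4a12a*, 77.3 for *Cyp4f14*, 76.3 for *Cyp4a12b*, 61.2 for *Cyp4a31*, 43.3 for *Cyp4a32*, 35.3 for *Ppara* and 2.24 for *Pdk4*. In KO livers the library ranges of neighbours in this order overlapped except between *Cyp4f14* and *Cyp4a12b* and between *Cyp4a32* and *Pdk4*. In WT livers they overlapped except between *Cyp4a10* and *Cyp4a12a*, between *Cyp4a12a* and *Cyp4f14*, and between *Ppara* and *Pdk4*. The order depends on the length used. Per kilobase of the canonical transcript, a scale chosen after the data were seen, *Ppara* had 16.4 CPM per kb in KO livers, below *Cyp4a31* at 17.4 and above *Cyp4a32* at 15.3, and *Cyp4f14* had 22.2 CPM per kb in KO livers, below *Cyp4a12b* at 28.4. On that scale *Cyp4a10* and *Cyp4a14* were still the top pair in both genotypes and *Pdk4* the lowest, but in WT livers *Cyp4a10*, at 268 CPM per kb, was above *Cyp4a14*, at 249. These levels hold the reads that near-copies share.

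By root mean square difference of centred log2 CPM over the 6 libraries, the gene nearest to *Cyp4a10* was *Cyp4a31* at 0.094, followed by *Cyp4a32* at 0.141, both sharing its reads, whereas *Cyp4a14* stood at 0.340 and *Pdk4* at 0.456. *Pdk4* was closer to *Cyp4a14* at 0.262 and farther from *Ppara* at 0.731. *Cyp4a12a* and *Cyp4a12b* were 0.139 apart. Among the 9450 genes with a mean log2 CPM above 1, other than the 9, the nearest to *Cyp4a10* were *Lect2* at 0.253, *Tpm2* at 0.276 and *Galns* at 0.286. Those nearest to *Cyp4a14* were *Akr1c20* at 0.146, *Tpm2* at 0.171 and *Pgp* at 0.179. For *Cyp4a12a* they were *Amot* at 0.134, *Bcl10* at 0.178 and *Sertad1* at 0.186, and for *Pdk4* they were *Myoz3* at 0.124 and *Wnt4* at 0.131.

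The other PPARα targets did not move as 1 group. Of 39 listed, all tested, 23 had a positive and 16 a negative log2 fold change, with a median of 0.029, beside −0.017 for all tested genes. EdgeR called 3 lower (*Aldh3a2*, *Fitm1* and *Vnn1*) and 0 higher, and DESeq2 called the same 3 and *Acot1* lower (log2 fold change −2.03 in edgeR, adjusted *p*=0.247, and 0.0291 in DESeq2) and 0 higher, where among all tested genes edgeR called 0.377% and DESeq2 1.78% lower. *Aldh3a2*, the fatty aldehyde dehydrogenase that acts after ω-hydroxylation, fell to 9.76, 10.9 and 11.0 CPM in KO livers 7-2, 7-3 and 8-3, against 73.5, 36.3 and 47.7 CPM in WT livers 7-2, 8-1 and 8-3. Every KO value of *Aldh3a2* was far below every WT value, the log2 fold change was −2.32 (95% interval −2.86 to −1.77, SE 0.24, edgeR adjusted *p*=0.00325), and the call held in all 17 alternative fits, with an adjusted *p* of at most 0.0233. *Fitm1*, a lipid droplet protein, had 0.549 ± 0.0584 CPM in KO livers and 1.90 ± 0.350 CPM in WT livers (log2 fold change −1.79, adjusted *p*=0.0288, edgeR), and *Vnn1*, a pantetheinase, had 2.41 ± 0.621 CPM in KO livers and 6.45 ± 0.900 CPM in WT livers (log2 fold change −1.42, adjusted *p*=0.0303, edgeR). Both calls depended on single libraries. With these left out in turn the adjusted *p* of *Fitm1* ranged from 0.0559 to 0.104, and that of *Vnn1* was under 0.05 only without KO 8-3 and reached 0.118. For *Cd36*, a fatty acid transporter, the log2 fold change was −0.74 (adjusted *p*=0.172, edgeR).

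Not all targets lay on the negative side. Before adjustment in edgeR, 4 of the 39 were higher and 8 lower with *p* under 0.05, beside 6.7% and 6.76% of all tested genes. *Cpt1a*, the gatekeeper of fatty acid entry into mitochondria, stood at a log2 fold change of 0.45 (adjusted *p*=0.349, edgeR). Among 17 partners and coregulators of PPARα, 13 were positive and 4 negative (median 0.077), 0 were called higher and 1 was called lower in edgeR (0.377% of all tested genes). That gene was *Pparg*, the sister receptor of *Ppara*, at 0.130, 0.606 and 0.128 CPM in KO livers 7-2, 7-3 and 8-3, against 2.30, 2.51 and 2.84 CPM in WT livers 7-2, 8-1 and 8-3 (log2 fold change −3.16, SE 0.53, adjusted *p*=0.0403, edgeR). With each library left out in turn its adjusted *p* was under 0.05 only without KO 7-3 and reached 0.143. The log2 fold change was 0.45 for the coactivator *Ncoa1* and 0.32 for the coactivator *Ep300*, neither of them called.

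Among 16 genes that act with or after the hydroxylases, edgeR called only *Aldh3a2*, already counted among the PPARα targets. Values were positive for 7 and negative for 9, with a median of −0.039. Of all tested genes edgeR called 0.377% lower and DESeq2 1.48% higher. DESeq2 added *Abcd3*, a peroxisomal fatty acid transporter, as higher, with 426 ± 35.8 CPM in KO livers and 260 ± 69.7 CPM in WT livers (log2 fold change 0.71, adjusted *p*=0.204 from edgeR and 0.0268 from DESeq2). For the alcohol dehydrogenase *Adh1* the log2 fold change was −0.30 (adjusted *p*=0.573, edgeR). Of 13 other Cyp4 genes 8 were tested, and 0 were called by edgeR or DESeq2, 4 being positive and 4 negative (median 0.077). At an unadjusted *p* under 0.05 (6.76% of all tested genes lower), 0 of them were higher and 2 lower, *Cyp4f16* (log2 fold change −1.37) and *Cyp4f37* (−2.54). Both had WT 7-2 far above every other library. *Cyp4f16* had 1.23, 0.843 and 0.580 CPM in KO livers 7-2, 7-3 and 8-3, against 4.35, 1.28 and 1.25 CPM in WT livers 7-2, 8-1 and 8-3. *Cyp4f37* had 0.295, 0.316 and 0.0580 CPM in KO livers, against 3.52, 0.167 and 0.235 CPM in WT livers. The log2 fold change was 0.39 for *Cyp4b1* and −0.67 for *Cyp4f17*.

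The partners of *Pdk4* gave 0 calls. Of 13 genes of the pyruvate dehydrogenase complex and its regulators, 10 were positive and 3 negative (median 0.16), with 0 calls by DESeq2 and, before adjustment in edgeR, 4 with *p* under 0.05 that were higher and 1 that was lower (6.7% and 6.76% of all tested genes). The sister kinase *Pdk1* had 28.3 ± 5.68 CPM in KO livers and 17.8 ± 3.94 CPM in WT livers (log2 fold change 0.67, adjusted *p*=0.204, edgeR), the sign opposite to that of *Pdk4*. The log2 fold changes of the regulator *Pdpr* (0.73), the core enzyme *Dlat* (0.37) and the pyruvate carrier *Mpc1* (0.38) were positive and not called.

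Lists of genes that mark the nutritional state were set beside these values. Of 16 fasting-induced liver genes, 8 were positive and 8 negative (median 0.023). EdgeR and DESeq2 called 0 of the 16, and an unadjusted *p* under 0.05 was reached by 1 higher, *Cpt1a*, and 1 lower, *Igfbp1*, beside 6.7% and 6.76% of all tested genes. *Igfbp1*, a fasting-induced binding protein of insulin-like growth factors, had 9.72, 22.2 and 9.03 CPM in KO livers 7-2, 7-3 and 8-3, against 54.1, 18.4 and 25.4 CPM in WT livers 7-2, 8-1 and 8-3 (log2 fold change −1.26, adjusted *p*=0.257, edgeR). Here too KO 7-3 was the highest KO liver and WT 8-1 the lowest WT liver. The fasting-induced *Angptl4*, an inhibitor of lipoprotein lipase, had a log2 fold change of −0.63, and *Insig2*, which retains SREBP precursors, had −0.37. Of 15 feeding-induced genes, 14 were positive and 1 negative (median 0.79), with 0 calls by edgeR and 7 called higher by DESeq2, and 10 higher and 0 lower had *p* under 0.05 in edgeR before adjustment. Of all tested genes DESeq2 called 1.48% higher, and 6.7% were higher before adjustment in edgeR. *Elovl6*, a fatty acid elongase, had 155, 128 and 89.6 CPM in KO livers, against 68.4, 61.9 and 57.0 CPM in WT livers (log2 fold change 0.99, adjusted *p*=0.0901 from edgeR and 0.000457 from DESeq2). *Srebf1* (0.90) and *Mid1ip1* (0.62) likewise had every KO liver above every WT liver.

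Since *Cyp4a12a* and *Cyp4a12b* are male-biased, other sex-biased genes were read in the same libraries. The study's methods name male mice of this line for diet feeding, and the sex of the refed mice was not tested here. Of 15 male-biased genes, 7 were positive and 8 negative (median −0.17), with 0 calls by edgeR. Before adjustment in edgeR, *p* was under 0.05 for 3 higher and 4 lower, beside 6.7% and 6.76% of all tested genes. DESeq2 called 1 higher (*Slco1a1*, log2 fold change 0.84) and 1 lower (*Hsd3b5*, −0.82), against 1.48% and 1.78% of all genes. The values of *Cyp2u1* (0.60) and *C6* (−0.48) also differed in sign. Of 16 female-biased genes 8 were tested, with 5 positive and 3 negative values, and edgeR called *Cyp2b10* (log2 fold change 4.11, adjusted *p*=0.0303) and *Cyp3a44* (5.03, adjusted *p*=0.0496) higher. Before adjustment in edgeR 4 of the 8 were higher and 1 lower with *p* under 0.05, beside 6.7% and 6.76% of all tested genes. DESeq2 called 4 higher and 1 lower, beside 1.48% and 1.78%, while edgeR called 0.071% of all tested genes higher. *Cyp3a44* stood at 154, 106 and 779 CPM in KO livers 7-2, 7-3 and 8-3, against 3.37, 19.6 and 8.71 CPM in WT livers 7-2, 8-1 and 8-3, so KO 8-3 was far above the rest, and without it the log2 fold change was 3.62 (adjusted *p*=0.061). Its call was lost in the same way without KO 7-2 and without any 1 WT library (adjusted *p* of at most 0.205). The call of *Cyp2b10* was also lost without KO 8-3 (log2 fold change 3.33, adjusted *p*=0.0913) and without any 1 WT library. Near-copies among the Cyp3a genes can share reads, so *Cyp3a44* and *Cyp3a41a* (4.73, adjusted *p*=0.0856) are uncertain as single genes, and *Atp6v0d2* had −1.16. Of 10 genes of growth hormone and androgen signalling, which set sex-biased expression in liver, 0 were called by either tool and 0 had an unadjusted *p* under 0.05; *Stat5b* had 0.40, *Jak2* 0.37, *Ghr* 0.26 and *Socs2* −1.02.

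The libraries held 60619938 to 68760956 counts in KO and 67299258 to 133384586 in WT. *Tcf7l2* was lower in every KO liver, at 2.74 to 3.33 CPM, against 4.87 to 6.85 CPM in WT livers (log2 fold change −0.93, adjusted *p*=0.0856 from edgeR and 0.00274 from DESeq2), from counts over the whole gene that also hold RNA outside the deleted part. Hepatocyte markers (7 matched, all above 0) summed to 42739 to 59053 CPM in KO livers and 47457 to 52121 CPM in WT livers. Stellate cell markers (10 of 10 above 0) summed to 86.1 to 89.1 CPM in KO livers, above the 46.8 to 60.2 CPM of WT livers, and sinusoidal endothelial markers (10 of 10 above 0) to 103 to 105 CPM, above 81.3 to 89.6 CPM. Kupffer cell markers (10 of 10 above 0; 73.0 to 91.0 CPM in KO, 87.6 to 107 CPM in WT) and cholangiocyte markers (6 of 6 above 0; 27.8 to 33.7 CPM in KO, 29.5 to 52.8 CPM in WT) overlapped, and 6 adipose markers, 1 of them at 0 throughout, summed to at most 0.147 CPM. The part of the cell types whose markers differed in the values above was not tested. Library labels begin with 7 or 8, and what this number stands for is not given. The log2 difference of KO and WT means was −1.52 for *Cyp4a10*, −1.30 for *Cyp4a14* and −1.19 for *Pdk4* within number 7 (2 KO, 1 WT) and −1.16, −0.54 and −0.72 within number 8 (1 KO, 2 WT).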

How the data were processed

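Liver RNA of 6 mice, 3 per genotype, was sequenced by the authors, who deposited raw counts per gene, made from unique and multiple alignments with coverage in Bedtools. The submitters' processing notes name TopHat and mm10. Not given in the sources used here are the aligner version, the annotation, the read length and any use of strand. Mice were taken as 1 per library, and no 2 libraries were copies (smallest chi-square per degree of freedom 199).

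KO was tested against WT by quasi-likelihood in edgeR (4.0.16, under R 4.3.3, with limma 3.58.1) with TMM factors and filterByExpr (min.count 10, min.total.count 15), with Benjamini-Hochberg adjustment over 14076 genes and a threshold of 0.05. It was tested on simulated data. Ratios and single values were compared by two-sided exact permutation tests over libraries. Alternatives were DESeq2 1.42.0, limma-voom, other scalings and filters, a replicate block and each library left out in turn. Coding sequences were aligned with MAFFT 7.526, each from the canonical GENCODE vM39 transcript, or from the one with the longest reading frame where the canonical frame was under 90% of it. Positions are from RefSeq. Named genes were the 9, *Tcf7l2*, the 3 genes most like each of *Cyp4a10*, *Cyp4a14*, *Cyp4a12a* and *Pdk4*, and, from each list other than markers, every call and up to 4 genes with the smallest *p*. *Acot1* was named after its values were seen. A few genes taken by this rule are not reported here. The genes and lists were chosen with earlier results of these data known.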

Additional observations from a re-analysis of the deposited data

How the results depend on the processing

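Under 17 alternatives, *Cyp4a10* (−1.77 to −0.67), *Cyp4a14*, *Cyp4a31*, *Cyp4a32*, *Cyp4a12a*, *Cyp4a12b* and *Pdk4* kept a negative log2 fold change of KO over WT. With DESeq2, *Cyp4a10* (−1.18), *Cyp4a31* (−1.08), *Cyp4a32* (−1.31), the sum of these 3 (−1.18) and the sum of all 6 *Cyp4a* genes (−0.92) passed the threshold. *Cyp4a32* passed it without KO replicate 7-3 (−1.73, in a range of −1.73 to −1.13 over the libraries left out). *Ppara* reversed without KO 8-3 (−0.0035, range −0.0035 to 0.36). *Cyp4f14* reversed without KO 7-2 (−0.011), KO 7-3 (−0.017) and WT 8-1 (−0.064), in a range of −0.064 to 0.19. The number of genes called, 63 in the reported fit, was 440 with DESeq2, 3020 with library sizes alone, 96 with no filter, and 24 to 87 with each library left out. With library sizes alone, *Adh1* (0.28), *Insig2* (0.21) and *C6* (0.17) reversed. The cause of these changes was not tested, save that library sizes alone moved the median of all genes to 0.61.

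Libraries 7-2 and 8-3 share their label number between genotypes, but deviations from the group means were not correlated (r = 0.0014 and 0.00041 over 14076 genes), so the numbers were not taken to pair mice. A replicate block on these 4 libraries gave −1.77 for *Cyp4a10* (adjusted *p*=0.0349, edgeR), −1.91 for *Cyp4a32* (0.0172) and −1.76 for the sum of *Cyp4a10*, *Cyp4a31* and *Cyp4a32* (0.0344), and reversed *Cyp4f14* (−0.16). A block on the leading number called 39 genes, 0 of them among the 9, and reversed *Cyp4f14* (−0.055). Of 459 values recomputed, 350 kept their direction and their side of the threshold or moved by less than the allowed spread. With 3 libraries against 3, an exact permutation test cannot go below 0.1, and p-values measure the spread between these livers alone.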
